A study of Homo sapiens with 17 samples.

Results

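The nuclear genes for subunits of the oxidative phosphorylation system were examined in L363 cells, an established human multiple myeloma line. They are the genes of complexes I to V whose symbols begin with NDUFA, NDUFB, NDUFC, NDUFS or NDUFV (assembly factors named NDUFAF left out), SDHA to SDHD, the UQCR genes with CYC1, COX4I1, the COX5 to COX8 genes and the ATP5 genes, under old or current symbols and without pseudogenes. A gene entered where a probe set named it alone, and its brightest probe set on average over the 17 arrays stood for it. This gave 81 of the 19775 genes measured: 33 of complex I, 3 of complex II, 7 of complex III, 18 of complex IV and 18 of complex V. The remaining pair, DMAC2 and DMAC2L, entered through their old names ATP5SL and ATP5S and belongs to no complex here. COXFA4 and COXFA4L2, the current symbols of NDUFA4 and NDUFA4L2, were counted with complex IV. NDUFS8, NDUFC2, NDUFS5, SDHB, UQCRFS1, UQCRH and UQCRHL were not analysed here.

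Oxidative phosphorylation couples the oxidation of NADH and succinate in the inner mitochondrial membrane to ATP synthesis. Complex I takes electrons from NADH and complex II from succinate, both pass them to ubiquinone, complex III moves them to cytochrome c and complex IV to oxygen, and complex V uses the proton gradient that results to make ATP. Most subunits are encoded in the nucleus and imported, while a small core of complexes I, III, IV and V is encoded by mitochondrial DNA, so that assembly draws on both genomes. Plasma cells, from which myeloma arises, secrete large amounts of antibody and depend on mitochondrial metabolism for it.

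All cells were L363, collected at 48 hours, and the 17 arrays fell into 6 groups. The control cells received no drug (3 arrays). The single treatments were 0.5 uM MS275, an inhibitor of class I histone deacetylases (3 arrays), and rapamycin, an inhibitor of the kinase mTOR, at 1 nM (3 arrays) or 10 nM (3 arrays). In the combinations MS275 at 0.5 uM was given with rapamycin at 1 nM (3 arrays, the 1 nM combination) or at 10 nM (2 arrays, the 10 nM combination). The labels do not say whether arrays of a group came from separate cultures, so p-values measure the spread between these arrays, which may be technical. In whole-culture RNA, fewer cells with a transcript and less of it per cell cannot be told apart.

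The 8 plasma cell and myeloma markers checked had mean log2 signals of 8.09 to 12.6, those of B cells 4.30 to 7.55, of T cells 3.89 to 5.14, of myeloid cells 2.98 to 5.68, of epithelium 2.72 to 6.68, of fibroblasts 4.64 to 6.92 and of striated muscle 3.58 to 5.49. A pair of arrays, both numbered 1, had a compressed scale: that of the control and that of the 1 nM combination (the narrow arrays), with an SD over all genes of 2.14 to 2.15 against 2.27 to 2.37. Values are log2 signals and differences between them, and a brighter probe set does not mean a more abundant transcript. A gene was called where limma's adjusted p (Benjamini-Hochberg over all 19775 genes) was under 0.05, and changes carry the standard error (SE) of that fit.

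The start regions of 4 complex I genes whose levels are described next are shown because subunit genes are often grouped by the motifs they carry there. Each run is the 250 bases before the gene's start in RefSeq (GRCh38.p14), 5′ to 3′ on the gene's strand, with motif matches in capitals. NDUFB8 lies on the minus strand (chr10:100529924-100530173), NDUFS3 on the plus strand (chr11:47578824-47579073), NDUFA6 on the minus strand (chr22:42090773-42091022) and NDUFS7 on the plus strand (chr19:1383657-1383906).
NDUFB8: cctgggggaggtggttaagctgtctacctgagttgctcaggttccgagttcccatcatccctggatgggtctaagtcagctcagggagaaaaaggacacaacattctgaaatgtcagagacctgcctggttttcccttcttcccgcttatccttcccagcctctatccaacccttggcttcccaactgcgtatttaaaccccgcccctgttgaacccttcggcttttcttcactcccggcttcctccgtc
NDUFS3: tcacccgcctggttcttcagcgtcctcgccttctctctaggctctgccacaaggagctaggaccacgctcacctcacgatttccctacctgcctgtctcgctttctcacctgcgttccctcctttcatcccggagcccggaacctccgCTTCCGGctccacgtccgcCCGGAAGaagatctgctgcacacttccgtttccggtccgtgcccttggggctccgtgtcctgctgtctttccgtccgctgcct
NDUFA6: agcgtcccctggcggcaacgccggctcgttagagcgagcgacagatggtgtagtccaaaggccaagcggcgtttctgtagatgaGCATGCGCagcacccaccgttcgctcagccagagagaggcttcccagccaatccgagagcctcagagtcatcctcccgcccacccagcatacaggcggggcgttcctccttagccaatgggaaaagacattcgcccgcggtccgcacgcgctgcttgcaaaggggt
NDUFS7: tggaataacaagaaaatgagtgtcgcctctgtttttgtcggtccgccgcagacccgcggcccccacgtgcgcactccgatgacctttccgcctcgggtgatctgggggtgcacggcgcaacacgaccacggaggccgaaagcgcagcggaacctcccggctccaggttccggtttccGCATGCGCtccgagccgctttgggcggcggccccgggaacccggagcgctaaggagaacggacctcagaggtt
The capitals are an NRF1 motif (GCGCATGC or its reverse complement) 166 bases before the start of NDUFA6 and 73 before that of NDUFS7, and a pair of ETS motifs (CCGGAAG or its reverse complement) 102 and 83 bases before the start of NDUFS3. The run of NDUFB8 holds neither, and none of the 4 runs holds a YY1 motif (AAGATGGC, both strands), though NDUFA6 and NDUFS7 each have 1 match when the 50 bases after the start are added. The runs of NDUFA9 and ATP5F1A, also described below, are not shown and hold none of these motifs. NDUFA9 too has 1 YY1 match with the 50 bases added. Over such windows of 300 bases, RefSeq had an entry for 69 of the 81 members. The NRF1 letters were in 12 of these 69 (17.4%), against 4.46% of the 13455 measured protein-coding genes with an entry. The ETS letters were in 18 (26.1% against 15.3%) and the YY1 letters in 10 (14.5% against 4.24%). At least 1 of the 3 motifs was in 32 members (46.4%) and in 21.7% of all such promoters. By complex the NRF1 letters were in 5 of 31 genes of complex I, 1 of 2 of complex II, 0 of 5 of complex III, 2 of 16 of complex IV and 4 of 14 of complex V. These matches are letters in a window, and no binding was measured.

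In cells given both drugs the NDUFB8 signal was lower than in all other cells. NDUFB8 is an accessory subunit of the membrane arm of complex I. Its log2 signal was 11.17, 11.31 and 10.45 on the control arrays, 11.27, 10.98 and 10.96 with MS275, 11.15, 11.34 and 11.51 with 1 nM rapamycin and 10.93, 11.22 and 11.50 with 10 nM. With the combinations it was 9.50, 9.90 and 10.05 (1 nM) and 10.14 and 9.81 (10 nM). All 5 combination arrays lay below all 12 others, which held for no other member and for 0.399% of all genes. The combination at 1 nM fell against control by 1.16 ± 0.24 (SE) on the log2 scale (adjusted p = 0.0160) and against 1 nM rapamycin by 1.51 ± 0.24 (adjusted p = 0.00582). Against MS275 alone the difference was -1.25 ± 0.24 (adjusted p = 0.0809). The difference from MS275 was thus not called, though it was no smaller than that from control and had the same SE. Of all genes, 0.106% were called against MS275 and 2.7% against control. At 10 nM the differences were -1.0 ± 0.27 from control (adjusted p = 0.0553), -1.24 ± 0.27 from 10 nM rapamycin (0.0649) and -1.10 ± 0.27 from MS275 (0.149). The difference from 10 nM rapamycin passed without the narrow arrays (0.0315), with the mean of its probe sets (0.0439) and with array weights (0.0385). It also passed without any 1 control array or replicate 1 of the 1 nM combination (0.0314 to 0.0499). So it did with the replicate number as a block (0.0457), though the numbers of the 10 nM combination were not shown to pair. The other alternatives did not pass, among them each array of 10 nM rapamycin left out (0.0984 to 0.212) and only the groups compared (0.215). Without replicate 1 or 2 of the 10 nM combination the difference was -1.41 or -1.08. Averaged over rapamycin (the 3 groups with MS275 against the 3 without), NDUFB8 fell with MS275 by 0.89 ± 0.14 (adjusted p = 0.00131). This fall and that against 1 nM rapamycin kept their call when any 1 of the 17 arrays was left out. MS275 alone differed from control by 0.09 ± 0.24. The difference between the joint effect and the sum of the single effects was -1.61 ± 0.34 at 1 nM (adjusted p = 0.682) and -1.34 ± 0.36 at 10 nM (adjusted p = 1), and so was not called. Both other probe sets of NDUFB8 lay below control in the combinations too, at -0.91 and -0.77 for 1 nM and -1.32 and -0.80 for 10 nM. With MS275 alone, and with rapamycin averaged over MS275, its probe sets went opposite ways by over 0.5. The call against control at 1 nM was lost without control replicate 2 (-0.99, adjusted p = 0.0660), without replicate 1 of the combination (-1.0, 0.0604) and without both narrow arrays (-0.90 ± 0.27, 0.106).

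NDUFA9, an accessory subunit that sits beside the ubiquinone-binding site of complex I, was highest in control cells. It gave 10.88, 11.29 and 11.33 on the control arrays, 10.74, 10.44 and 10.48 with MS275, 10.55, 10.18 and 10.67 with 1 nM rapamycin and 10.52, 10.17 and 10.94 with 10 nM. The combinations gave 9.91, 9.92 and 10.39 (1 nM) and 9.81 and 10.14 (10 nM). Both combinations, MS275 and 1 nM rapamycin lay wholly below control, while replicate 3 of 10 nM rapamycin lay among the control arrays. The fall against control was 1.09 ± 0.23 for the 1 nM combination (adjusted p = 0.0163) and 1.19 ± 0.25 for the 10 nM combination (adjusted p = 0.0188). The single treatments differed by -0.61 ± 0.23 (MS275), -0.70 ± 0.23 (1 nM) and -0.63 ± 0.23 (10 nM), with adjusted p of 0.270, 0.366 and 0.476. Averaged over the other drug, NDUFA9 fell by 0.52 ± 0.14 with MS275 (adjusted p = 0.0267) and by 0.60 ± 0.14 with rapamycin (adjusted p = 0.0387). Its interaction was 0.22 ± 0.32 at 1 nM and 0.05 ± 0.34 at 10 nM. The 1 nM call was lost without control replicate 2 or 3 or replicate 1 or 2 of the combination (adjusted p = 0.0550 to 0.0743). The 10 nM call was lost without control replicate 3 or either combination array (0.0607 to 0.165), and the averaged falls in 8 (MS275) and 13 (rapamycin) of the 17 fits that left out 1 array, at an adjusted p of at most 0.138.

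NDUFS3 and NDUFS7 are core subunits of the matrix arm, NDUFS7 carrying the iron-sulphur cluster that hands electrons to ubiquinone. NDUFS3 gave 10.36, 10.36 and 10.23 in control, 10.13, 9.32 and 10.05 with MS275, 10.14, 10.13 and 10.57 with 1 nM rapamycin, 10.00, 10.08 and 10.68 with 10 nM, 9.38, 9.31 and 9.94 with the 1 nM combination and 9.12 and 9.71 with the 10 nM combination. Every array with MS275 lay below every control and 1 nM rapamycin array, while replicates 1 and 2 of 10 nM rapamycin lay within the range of the MS275 arrays. Averaged over rapamycin, NDUFS3 fell with MS275 by 0.69 ± 0.16 (adjusted p = 0.0139), and without replicate 1 of the 10 nM combination the change was -0.59 (adjusted p = 0.0609). NDUFS7 gave 12.30, 11.51 and 11.31 in control, 11.79, 11.25 and 11.42 with MS275, 11.21, 11.20 and 11.51 with 1 nM rapamycin, 11.01, 11.02 and 11.67 with 10 nM, 10.99, 10.28 and 11.09 with the 1 nM combination and 10.04 and 10.67 with the 10 nM combination. Both combinations lay below control, where replicate 1 stood highest of all arrays. NDUFS7 fell in the 10 nM combination by 1.35 ± 0.33 (adjusted p = 0.0404), and without the narrow arrays the change was -1.06 ± 0.32 (adjusted p = 0.0901). The call was lost in 10 of the 17 fits that left out 1 array (adjusted p up to 0.327).

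NDUFA6, an accessory subunit of the matrix arm, gave 10.33, 10.79 and 9.77 in control, 10.37, 9.84 and 10.44 with MS275, 10.54, 10.38 and 10.86 with 1 nM rapamycin and 10.36, 10.27 and 10.96 with 10 nM. It gave 9.20, 8.89 and 10.09 with the 1 nM combination and 9.22 and 10.03 with the 10 nM combination. The combinations overlapped with the control and MS275 arrays, through control replicate 3 and MS275 replicate 2. With MS275 alone NDUFA6 differed from control by -0.08 ± 0.34 (adjusted p = 0.966). Averaged over rapamycin, NDUFA6 fell with MS275 by 0.73 ± 0.21 (adjusted p = 0.0422), and without the narrow arrays the change was -0.69 ± 0.23 (adjusted p = 0.0815). The call was lost in 14 of the 17 fits that left out 1 array (adjusted p up to 0.162).

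Outside complex I, 1 gene each of complexes II, III and V was called. SDHC, a membrane anchor of succinate dehydrogenase, gave 9.37, 9.86 and 9.57 in control, 9.40, 9.32 and 9.38 with MS275, 8.87, 9.06 and 9.09 with 1 nM rapamycin, 8.49, 9.15 and 9.47 with 10 nM, 8.95, 8.78 and 9.07 with the 1 nM combination and 8.61 and 8.67 with the 10 nM combination. Every combination array lay below control and below MS275, and replicate 3 of 10 nM rapamycin stood apart from the other rapamycin arrays, within the control range. SDHC fell by 0.58 ± 0.13 with rapamycin averaged over MS275 (adjusted p = 0.0347) and by 0.96 ± 0.24 in the 10 nM combination (adjusted p = 0.0416). Its 7 probe sets did not move together: the 4 brighter lay below control in the 10 nM combination (-0.96 to -0.29) and the 3 dimmer above it (0.18 to 1.12). With the mean of its probe sets, the changes were -0.18 ± 0.17 for rapamycin (adjusted p = 0.833) and -0.17 ± 0.30 for the 10 nM combination (adjusted p = 0.853). Leaving out 1 array lost the rapamycin call in 12 of 17 fits and the combination call in 13 (adjusted p up to 0.102 and 0.208).

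CYC1, which encodes the cytochrome of complex III that passes electrons on to soluble cytochrome c, gave 11.02, 10.68 and 10.91 in control, 10.57, 9.81 and 10.34 with MS275, 10.53, 10.18 and 10.82 with 1 nM rapamycin and 10.44, 10.12 and 10.96 with 10 nM. The combinations gave 10.35, 9.44 and 10.05 (1 nM) and 9.30 and 9.69 (10 nM). The 3 MS275 arrays and all 5 combination arrays lay below the control arrays, and the 10 nM combination lay below every group but the 1 nM combination. CYC1 fell by 1.37 ± 0.32 in the 10 nM combination (adjusted p = 0.0273) and by 0.73 ± 0.17 with MS275 averaged over rapamycin (adjusted p = 0.0140). In the 1 nM combination the change was -0.92 ± 0.28 (adjusted p = 0.117), and with the replicate number as a block, since same-numbered arrays of these groups deviated together, it passed at an adjusted p of 0.0275. The 10 nM call was lost without control replicate 1 or 3 or either combination array (adjusted p = 0.0633 to 0.216), and the averaged MS275 call without replicate 1 of the 10 nM combination (0.0550).

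ATP5F1A, the alpha subunit of the catalytic head of ATP synthase, gave 13.15, 13.10 and 13.46 in control, 12.80, 12.41 and 12.96 with MS275, 13.01, 12.93 and 13.17 with 1 nM rapamycin, 13.04, 12.98 and 13.12 with 10 nM, 12.90, 12.53 and 12.86 with the 1 nM combination and 12.31 and 12.87 with the 10 nM combination. Every array with MS275 lay below every control array. ATP5F1A fell with MS275, averaged over rapamycin, by 0.41 ± 0.12 (adjusted p = 0.0405). With the mean of its probe sets the change was -0.29 ± 0.13 (adjusted p = 0.203). The call was lost in 12 of the 17 fits that left out 1 array (adjusted p up to 0.169).

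**Figure D1:**
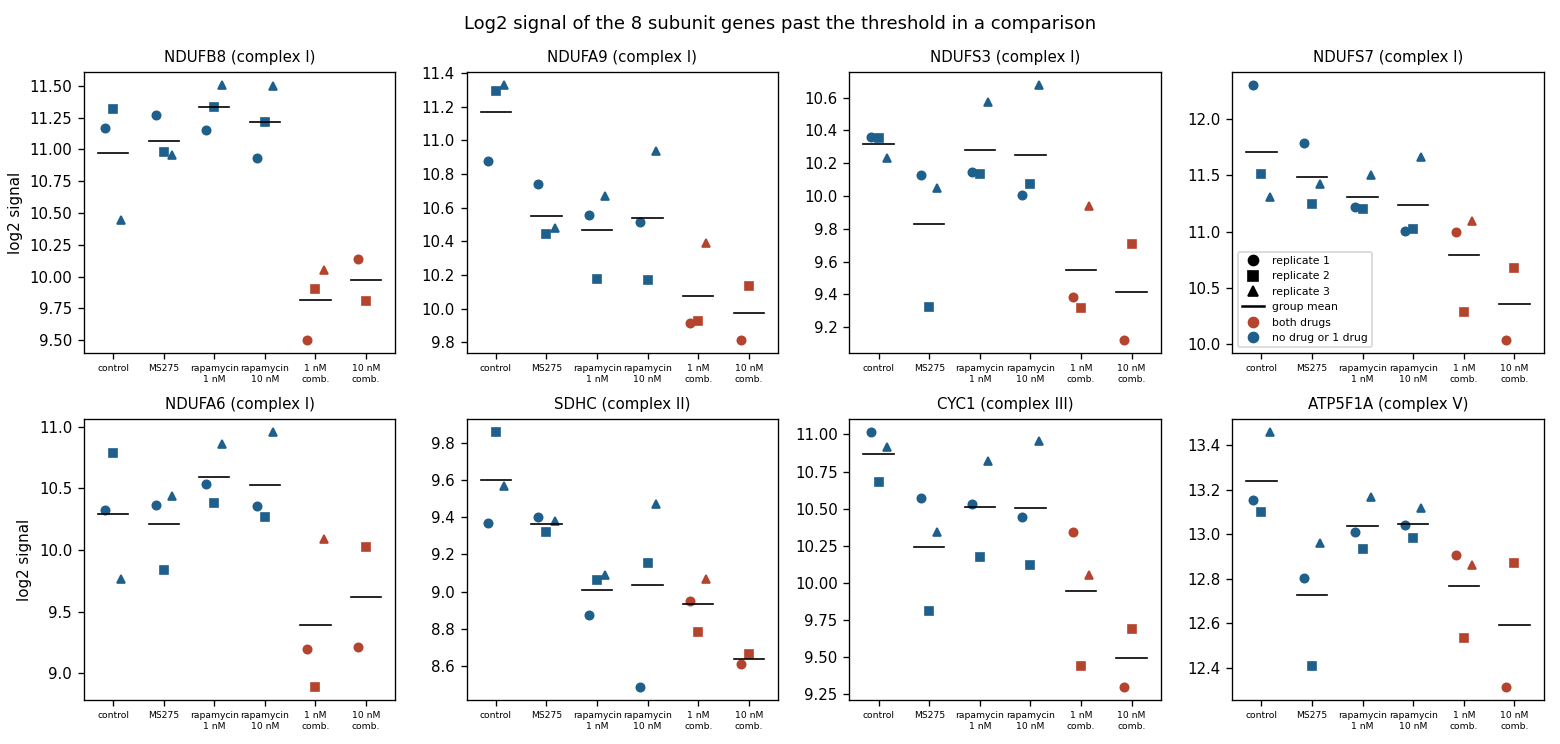
Log2 signal (y axis) of the 8 called genes in the 6 groups (x axis); each point is an array, its shape the replicate number, its colour whether both drugs were given, and the line is the group mean. The 5 combination arrays of NDUFB8, from 9.50 to 10.14, lie below all others, while those of the other 7 genes overlap with 1 or more groups.

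These 8 genes made up all calls among the 81 members, and 73 members were called in no comparison. In the 1 nM combination 8 members had every array below every control array (5.61% of all genes), and in the 10 nM combination 12 did (13%). In the 1 nM combination against control 2 members fell (NDUFB8 and NDUFA9) and none rose, against 1.58% of all genes that fell and 2.7% called in either direction. In the 10 nM combination 4 fell (NDUFA9, CYC1, NDUFS7 and SDHC) and none rose, against 2.24% of all genes falling and 3.3% called. For MS275 averaged over rapamycin 6 fell (NDUFB8, NDUFS3, CYC1, NDUFA9, ATP5F1A and NDUFA6) and none rose, with 3.59% of all genes falling and 8.13% called. For rapamycin averaged over MS275 2 fell (SDHC and NDUFA9) and none rose, with 1.94% of all genes falling and 2.35% called. NDUFB8 was the 1 member that fell between the 1 nM combination and 1 nM rapamycin, where 0.293% of all genes fell and 1.23% were called. These comparisons share arrays and are not independent of each other.

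No single treatment had a called member by limma against control. The adjusted threshold was passed by 1.49% of all genes with MS275, 0.101% with 1 nM rapamycin and 0.435% with 10 nM. At an unadjusted p under 0.05 there were 18 members (22.2%, against 10.8% of all genes) with MS275, 20 (24.7% against 8.05%) with 1 nM rapamycin and 17 (21% against 6.96%) with 10 nM. The doses of rapamycin, averaged over MS275, differed in 0 members by limma, with 0 at an unadjusted p under 0.05 (0.288% of all genes) and 0% of all genes called. Likewise 0 members were called in the interaction at 1 nM (29 at an unadjusted p under 0.05, or 35.8%, against 4.63% of all genes) or at 10 nM (6, or 7.41%, against 0.981%), where 0% of all genes were called. In the 1 nM combination against MS275, 0 members and 0.106% of all genes were called, with 11 members (13.6%) and 4.44% of all genes at an unadjusted p under 0.05. In the 10 nM combination 0 members and 0.253% of all genes were called against MS275, and 0 and 0.435% against 10 nM rapamycin. At an unadjusted p under 0.05 these were 5 members (6.17%, all genes 4.5%) and 6 members (7.41%, all genes 7.34%).

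Few calls went with a wide spread among the control arrays. The median SD of the members was 0.59 among the control arrays and 0.59 in the 1 nM combination, against 0.30 with MS275, 0.23 with 1 nM rapamycin, 0.31 with 10 nM and 0.40 in the 10 nM combination. Over all genes the medians were 0.35 in the 1 nM combination, 0.23 with MS275, 0.17 and 0.22 with 1 and 10 nM rapamycin and 0.20 in the 10 nM combination. Control was the widest there too, at 0.40. ATP5F1E, the epsilon subunit of ATP synthase, shows this: it gave 8.64, 11.59 and 9.57 in control, 11.47, 11.64 and 11.64 with MS275, 11.63, 11.85 and 11.79 with 1 nM rapamycin, 11.65, 11.65 and 11.48 with 10 nM, 9.61, 10.99 and 11.54 with the 1 nM combination and 11.80 and 11.85 with the 10 nM combination. Control replicates 1 and 3 stood low as did replicate 1 of the 1 nM combination, and control replicate 2 stood among the treated arrays. The differences from control were 1.65 ± 0.57 (MS275, adjusted p = 0.219), 1.83 ± 0.57 (1 nM, 0.336) and 1.66 ± 0.57 (10 nM, 0.404), the largest positive differences of complex V in each of these comparisons. With the mean of its probe sets they were 0.59, 0.86 and 0.78. UQCRB, a small subunit of complex III, had the same layout with 9.44, 11.75 and 9.85 in control and 11.97, 11.81 and 12.26 with 1 nM rapamycin, a difference of 1.67 ± 0.49 (adjusted p = 0.296). COX5A and COX7A2, small subunits of complex IV, gave 8.62, 11.47 and 9.81 and 9.37, 11.52 and 9.99 on the control arrays, again low on replicates 1 and 3.

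Among fits that left out 1 array, members were called in the single treatments only without control replicate 2. Without it 7 members rose with MS275 (0.86% of all genes rose), 5 with 1 nM rapamycin (0.137%) and 4 with 10 nM (0.152%). ATP5F1E and UQCRB were among them each time, with rises of 2.48 and 1.93 (MS275), 2.66 and 2.37 (1 nM) and 2.49 and 2.02 (10 nM). In the 10 nM combination 5 members then rose and 3 fell (1.19% and 2.3% of all genes). For rapamycin averaged over MS275, ATP5F1E and UQCRB rose and no member fell, so the calls of SDHC and NDUFA9 were lost. When each array was weighted by how well it fitted its group, control replicate 1 had a weight of 0.11, replicate 2 of 0.54 and replicate 3 of 2.92. Under these weights 18 members rose and 4 fell with MS275 (7.61% of all genes called), 34 rose and 6 fell with 1 nM rapamycin (14.2%), and 23 rose and 5 fell with 10 nM (9.87%). The 1 nM combination then had 2 rises and 6 falls (7.08%), and the 10 nM combination 4 rises and 9 falls (7.86%). These fits rest mostly on control replicate 3 for the control level. The 1 nM rapamycin level rests mostly on its replicate 1, with a weight of 11.3 against 1.26 and 1.24 for replicates 2 and 3.

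The complexes differed in where their members lay. With MS275 the median log2 change from control was 0.32 for complex I, -0.23 for complex II, 0.58 for complex III, 0.25 for complex IV and 0.31 for complex V, against -0.05 over all genes. With 1 nM rapamycin it was 0.38, -0.59, 0.58, 0.32 and 0.37 for complexes I to V in turn (all genes -0.12), and with 10 nM 0.35, -0.56, 0.47, 0.25 and 0.28 (all genes -0.07). In the 1 nM combination it was -0.16, -0.66, -0.16, 0.03 and 0.04 (all genes 0.02), and in the 10 nM combination -0.06, -0.96, 0.06, -0.03 and 0.15 (all genes -0.08). With array weights the medians of complexes I, III, IV and V in the 1 nM combination were 0.32, 0.40, 0.33 and 0.42, and without replicate 2 of that combination complex III stood at 0.21. The single-drug medians of complex I were 0.030, 0.091 and 0.061 (MS275, 1 and 10 nM rapamycin) without control replicate 3, and 0.64, 0.69 and 0.64 with array weights. In the 10 nM combination the medians of complexes I, III, IV and V were 0.28, 0.42, 0.19 and 0.61 without its replicate 1 and -0.43, -0.27, -0.18 and -0.16 without its replicate 2. Complex II lay below 0 in all 5 treatments, though it rests on 3 genes. SDHA, its flavoprotein that oxidises succinate, gave 11.26, 11.27 and 11.41 in control and 10.54 and 9.94 with the 10 nM combination, a change of -1.08 ± 0.34 (adjusted p = 0.112). SDHD, its other membrane anchor, gave 7.29, 9.40 and 9.38 in control, and its changes lay between -0.09 and 0.62 in the 5 treatments. With the mean of each gene's probe sets, the complex II median was 0.04 with MS275, -0.05 and -0.10 with 1 and 10 nM rapamycin, and -0.25 and -0.17 in the combinations, and with MS275 those of complexes I, III and V were 0.13, 0.24 and 0.080.

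**Figure D2:**
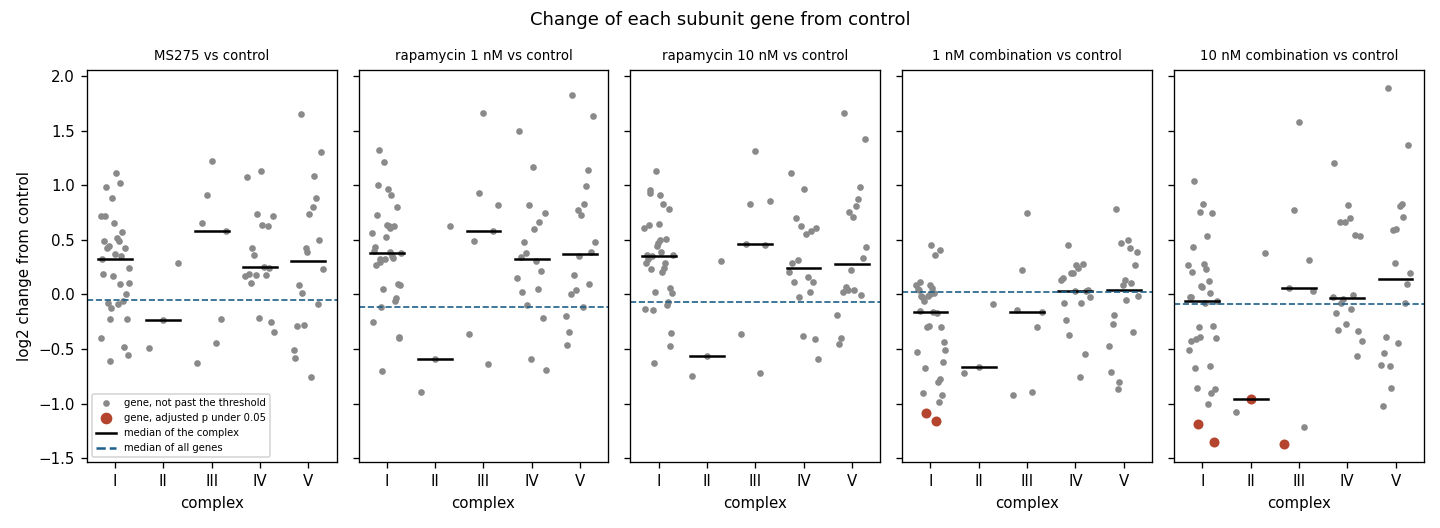
Log2 change from control (y axis) of each subunit gene by complex (x axis) in the 5 treatments; grey points are genes not past the threshold, red points those with an adjusted p under 0.05, black lines the median of a complex and the dashed line that of all genes. Red points appear only in the combinations (2 at 1 nM and 4 at 10 nM), and complex II has the lowest median in each panel.

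Within complex I the medians of its modules differed, a description with no test. The 4 measured genes of the Q module, which reduces ubiquinone (NDUFA5, NDUFA9, NDUFS3 and NDUFS7), had a median change of -0.84 in the 1 nM combination, with all 4 below 0, and of -1.05 in the 10 nM combination, with 3 of 4 below 0. The 10 genes of the N module, which oxidises NADH, stood at -0.37 and -0.35. The 19 genes of the proton-pumping membrane arm stood at -0.02 and 0.07. With MS275 alone these medians were -0.35, 0.14 and 0.49. NDUFA5 was the Q module gene above control at 10 nM: it gave 6.27, 9.25 and 9.0 in control and 8.71 and 9.71 with the 10 nM combination, and its control replicate 1 was among the lowest of its values. In complex V the 5 genes of the catalytic head stood at -0.27 and -0.54 in the 1 and 10 nM combinations, the 4 of the peripheral stalk at 0.13 and 0.15, and the 5 small membrane subunits at 0.13 and 0.71. ATP5F1B, the beta subunit that holds the catalytic sites, gave 12.89, 12.49 and 13.54 in control and 11.49 and 12.42 with the 10 nM combination, a change of -1.02 ± 0.36 (adjusted p = 0.179). ATP5IF1, which encodes the inhibitor of ATP hydrolysis, changed by -0.87 ± 0.35 in the 1 nM combination (adjusted p = 0.291), and by -1.23 ± 0.20 with the mean of its 3 probe sets (adjusted p = 0.00409).

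Complexes I, III, IV and V shifted together from array to array. Taking each gene relative to its own mean over the 17 arrays, the median member stood at -0.17, 0.20 and -0.53 on control replicates 1, 2 and 3. It stood at 0.28, -0.12 and 0.37 with MS275, at 0.16, 0.04 and 0.50 with 1 nM rapamycin, and at 0.08, -0.01 and 0.47 with 10 nM. In the combinations it stood at -0.32, -0.59 and 0.19 (1 nM) and at -0.41 and 0.12 (10 nM). Replicate 3 was the highest of its group in each of the 4 groups with 3 treated arrays, and the lowest in control. Control replicate 3 was the lowest array for 16 members and replicate 2 of the 1 nM combination for 20, while replicate 3 of 10 nM rapamycin was the highest for 21 and replicate 3 of 1 nM rapamycin for 14. All genes together stayed between -0.10 and 0.21 on these scales, but a median over 19775 genes can move less than that of a small set. Other mitochondrial genes spanned about as much as the members. Ribosomal proteins ran from -0.68 to 0.62, import genes from -0.62 to 0.57 and tricarboxylic acid cycle enzymes from -0.66 to 0.79. Assembly genes of complexes II to V ran from -0.42 to 0.53, and regulators of mitochondrial biogenesis less widely, from -0.42 to 0.27.

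**Figure D3:**
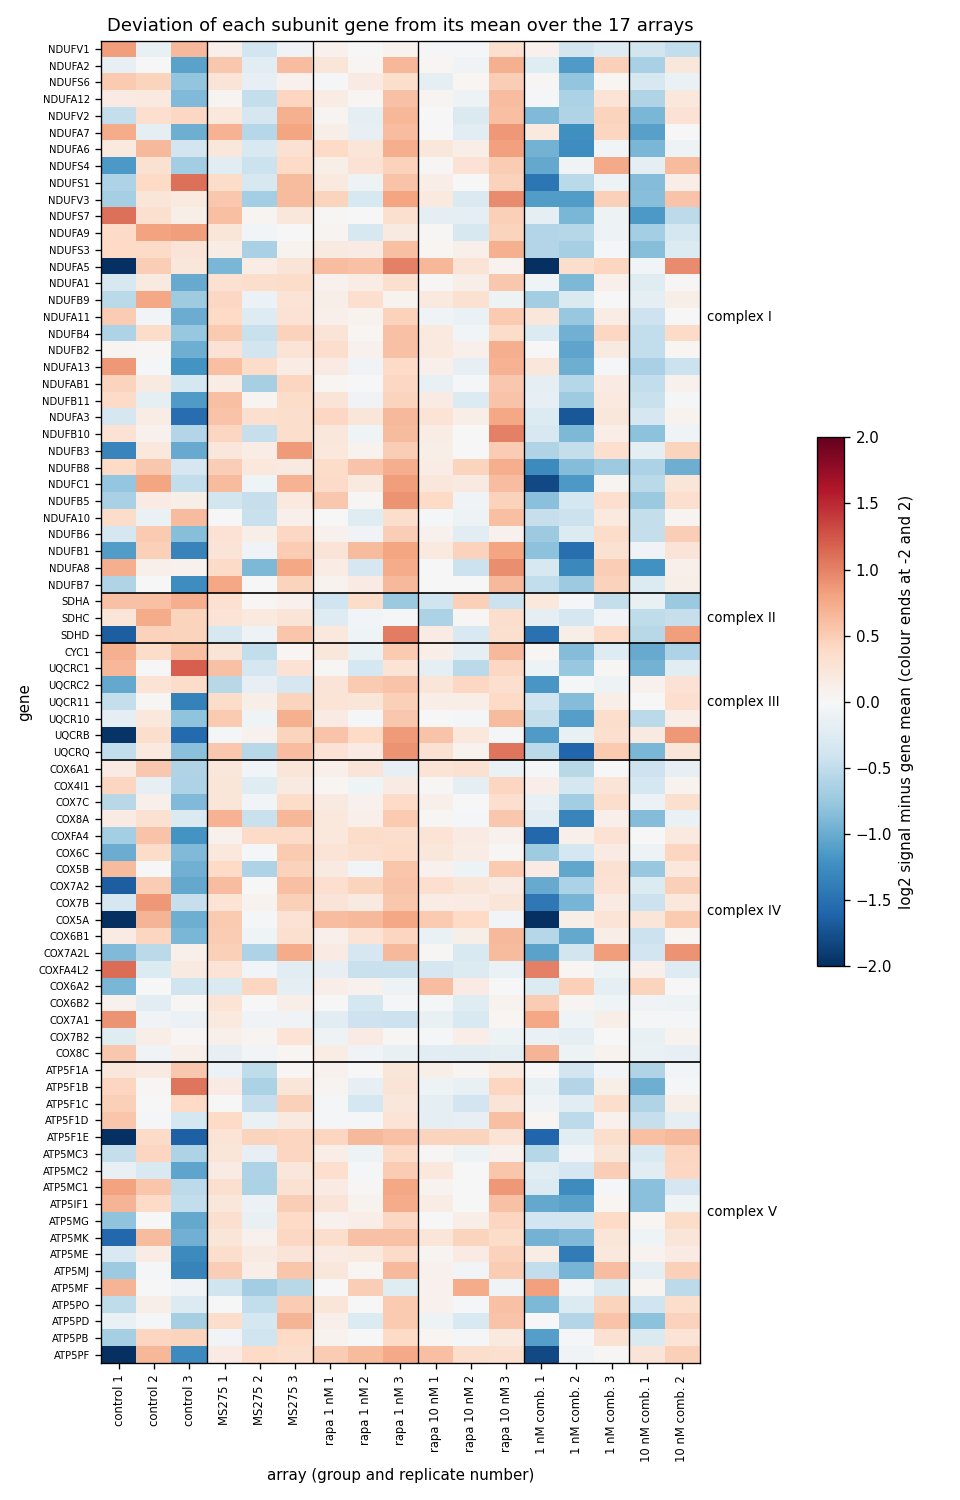
Log2 signal of each of the 79 genes in a complex (rows) on each of the 17 arrays (columns), relative to the gene's mean, blue below and red above it; colours end at -2 and 2. Whole columns shift together, with replicate 2 of the 1 nM combination and control replicate 3 mostly blue and replicate 3 of both rapamycin groups mostly red.

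**Figure D4:**
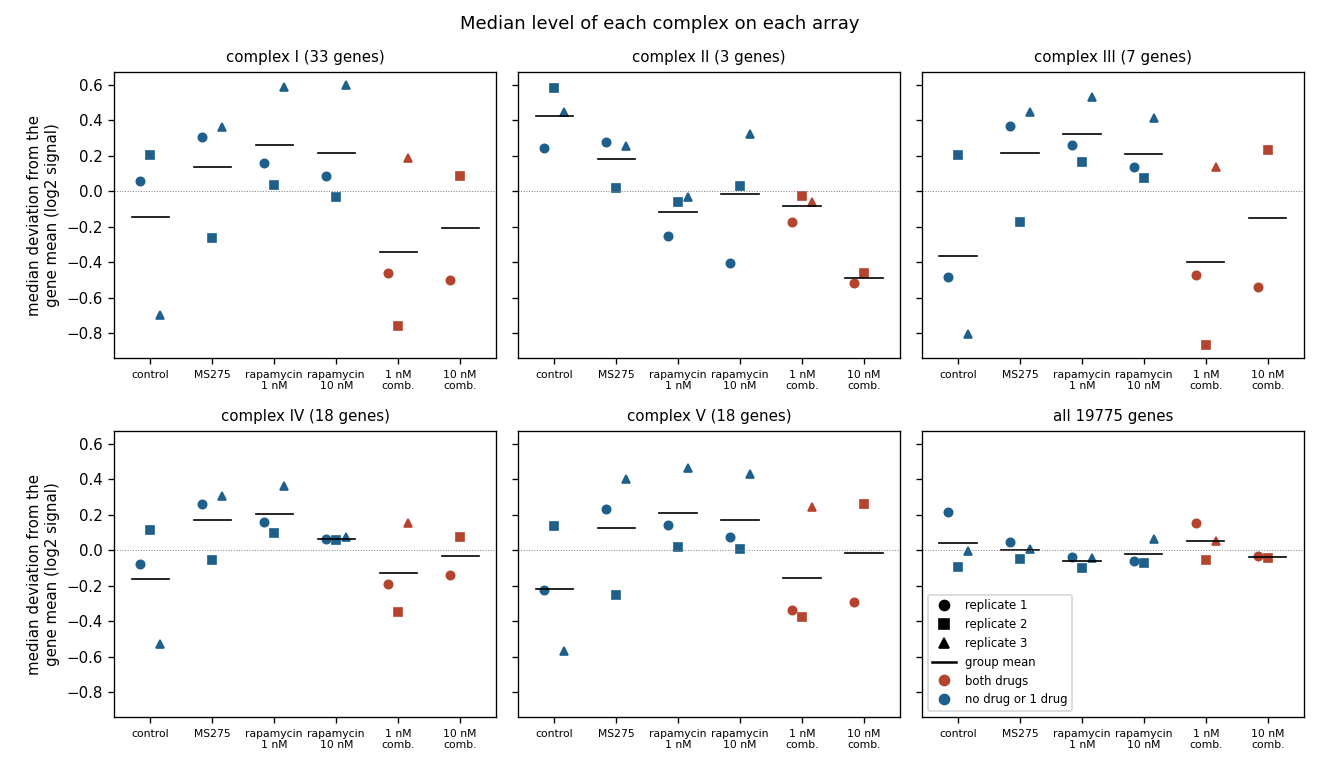
Median deviation of the genes of each complex from their own means (y axis, log2 signal) by group (x axis); points are arrays, shapes replicate numbers, colours whether both drugs were given, and lines group means, with all genes in the last panel. Complexes I and III span the widest range (complex I from -0.76 to 0.60), and complex II alone has every combination array below every control array. Its 1 nM rapamycin arrays (-0.25, -0.06 and -0.03) lie below every control array as well, and its median rests on 3 genes.

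Set against the array of the same number, the 1 nM combination was lower than either drug alone each time. Its median member differed from MS275 by -0.76, -0.39 and -0.14 in numbers 1, 2 and 3, with 73, 59 and 65 of the 81 members below. From 1 nM rapamycin it differed by -0.55, -0.62 and -0.24, with 66, 73 and 69 below. Against control the sign varied: -0.21, -0.76 and 0.71. MS275 against control varied too, at 0.47, -0.44 and 0.93, as did 1 nM rapamycin at 0.36, -0.14 and 1.06. For the 10 nM combination, number 1 stood at -0.63 from MS275 and -0.41 from 10 nM rapamycin, and number 2 at 0.32 and 0.13. These numbers were not shown to pair. Deviations of same-numbered arrays correlated at 0.07 (number 1) and -0.66 (number 2) with MS275, and at 0.10 and -0.63 with 10 nM rapamycin. Over all groups, the median interaction of the members was -0.82 at 1 nM and -0.57 at 10 nM, against 0.16 and 0.02 over all genes, and 65 and 67 of the 81 members lay below 0. By complex it was -0.86, 0.16, -1.29, -0.80 and -0.69 for complexes I to V at 1 nM, and -0.66, -0.17, -0.95, -0.54 and -0.60 at 10 nM. The interaction sets 4 groups against each other, the control among them, and no member passed.

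Complex IV was represented by 12 broadly expressed subunits and 6 tissue-restricted ones, and whether the latter are expressed in these cells was not tested. The former had a median change of 0.50 with MS275 and 0.49 and 0.44 with 1 and 10 nM rapamycin, with all 12 above 0 each time, and of 0.09 and 0.26 in the 1 and 10 nM combinations. The latter stood at -0.02, -0.15, -0.20, 0.03 and -0.16 in the same order. COX6A2, the heart and muscle form of COX6A1, was the restricted isoform with the largest positive changes, from 0.43 with MS275 to 0.70 with 10 nM rapamycin (adjusted p = 0.697 and 0.597), while COX6A1 lay between -0.32 and 0.11 in the 5 treatments. COX7A1, the muscle form beside COX7A2, stood at -0.22, -0.59, -0.38, 0.03 and -0.28, and COX7A2 at 1.13, 1.17, 0.97, 0.27 and 0.82. COX8C and COX7B2, testis forms beside COX8A and COX7B, had mean signals of 2.02 and 3.12. COXFA4L2, the hypoxia-related counterpart of COXFA4, gave 7.52, 6.13 and 6.57 in control and 6.24, 5.96 and 5.96 with 1 nM rapamycin, a difference of -0.69 ± 0.33 (adjusted p = 0.624) with control replicate 1 the highest of its values. The 3 genes for the identical c subunit of the ATP synthase ring did not lie together: ATP5MC1 stood at -0.80 and -0.86 in the 1 and 10 nM combinations, ATP5MC2 at 0.48 and 0.59, and ATP5MC3 at 0.09 and 0.29, with none called.

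The 7 measured subunits encoded in mitochondrial DNA (COX1, COX2 and COX3 of complex IV, ND2, ND4 and ND6 of complex I, and ATP6 of complex V) followed another order of arrays. Relative to each gene's mean, their median was -0.86, 0.57 and -0.26 on control replicates 1, 2 and 3, and -0.06, 0.74 and -0.22 with MS275. It was 0.29, 0.41 and -0.08 with 1 nM rapamycin, 0.28, 0.32 and -0.44 with 10 nM, -0.57, 0.45 and -0.25 in the 1 nM combination and 0.39 and 0.13 in the 10 nM combination. Replicate 2 was thus highest and replicate 3 below 0 in each group of 3, and the narrow arrays were lowest. COX1, the catalytic subunit of complex IV, gave 11.58, 13.99 and 13.38 in control and 12.17, 13.87 and 13.20 in the 1 nM combination. By limma 0 of the 7 were called in any treatment against control, with 0 at an unadjusted p under 0.05.

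**Figure D5:**
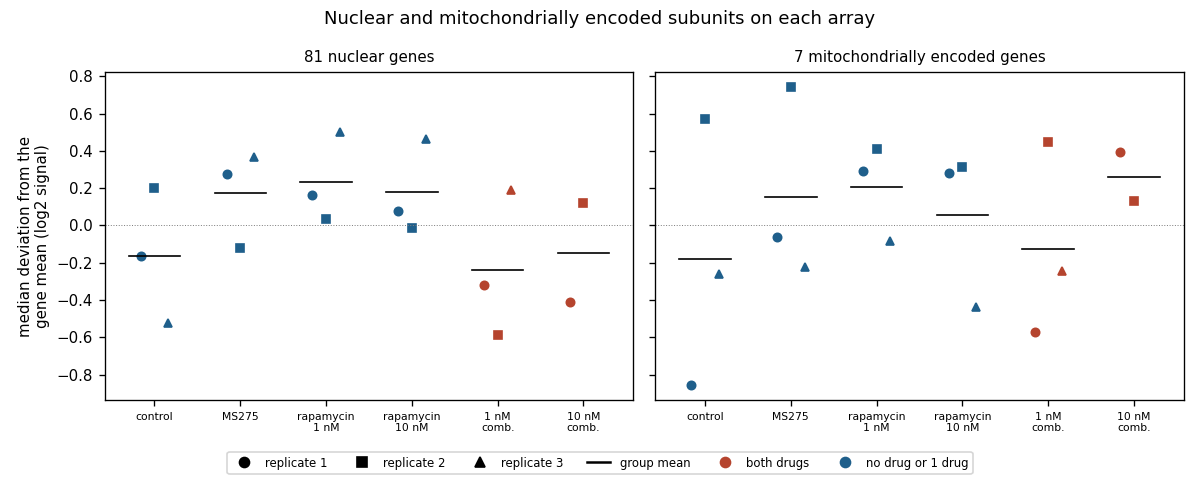
Median deviation from the gene mean (y axis, log2 signal) of the 81 nuclear members and of the 7 mitochondrially encoded subunits by group (x axis); points are arrays, shapes replicate numbers, colours whether both drugs were given, lines group means. Replicate 3 is highest in treated groups of 3 on the left and below 0 on the right, where replicate 2 leads.

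Genes that build or feed the system had few calls as well, and in the single treatments against control COQ8A with 10 nM rapamycin was the 1 call. Of 18 complex I assembly genes, 0 rose and 3 fell with MS275 averaged over rapamycin: NDUFAF8 by 0.70 ± 0.19, NDUFAF5 by 0.60 ± 0.13 and FOXRED1 by 0.53 ± 0.15 (adjusted p = 0.0299, 0.0104 and 0.0442). FOXRED1, an oxidoreductase that assists complex I assembly, also fell in the 10 nM combination by 1.28 ± 0.28 (adjusted p = 0.0241), and was the 1 of the 18 called there. Of 37 assembly genes of complexes II to V, COX15, needed for heme A of complex IV, fell with averaged MS275 by 0.60 ± 0.15 (adjusted p = 0.0227) and no other was called in that comparison. Of 73 mitochondrial ribosomal proteins, 2 fell with averaged MS275 (MRPS15 by 0.81 ± 0.19 and MRPS26 by 0.46 ± 0.13), and of 22 import genes TIMM50 fell by 0.58 ± 0.17, and by 1.33 ± 0.31 in the 10 nM combination (adjusted p = 0.0431 and 0.0289).

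Of 16 electron carriers and quinone-linked dehydrogenases, COQ8A, a kinase-like protein needed for ubiquinone synthesis, rose with rapamycin. It gave 8.61, 8.75 and 8.72 in control, 8.48, 8.35 and 8.54 with MS275, 9.20, 9.39 and 9.29 with 1 nM rapamycin, 9.39, 9.46 and 9.44 with 10 nM, 9.17, 9.19 and 9.18 with the 1 nM combination and 9.31 and 9.42 with the 10 nM combination. Every array with rapamycin lay above every array without, and the average rise was 0.74 ± 0.08 (adjusted p = 0.000250). DHODH, the pyrimidine enzyme that reduces ubiquinone, fell in the 10 nM combination by 1.32 ± 0.32 (adjusted p = 0.0391) and with MS275 averaged over rapamycin by 0.68 ± 0.17 (adjusted p = 0.0262), as COQ4 of the ubiquinone pathway did by 0.58 ± 0.15 (adjusted p = 0.0294). Of 17 regulators of mitochondrial biogenesis, PPARGC1A, a coactivator that drives respiratory genes in many tissues, rose with MS275 averaged over rapamycin by 0.93 ± 0.21 (adjusted p = 0.0108) and no other was called in that comparison. It gave 6.66, 7.37 and 7.90 in control, 8.44, 8.79 and 8.58 with MS275, 8.16, 7.46 and 7.78 with 1 nM rapamycin, 7.87, 7.53 and 7.70 with 10 nM, 7.49, 8.80 and 8.46 with the 1 nM combination and 8.44 and 9.08 with the 10 nM combination. All MS275 arrays but replicate 1 of the 1 nM combination lay above all arrays without it. MS275 alone differed from control by 1.29 ± 0.34 (adjusted p = 0.0850). Of 17 tricarboxylic acid cycle enzymes, IDH2, the mitochondrial isocitrate dehydrogenase that yields NADPH, rose with MS275, averaged in the same way, by 0.99 ± 0.25 (adjusted p = 0.0214). NRF1, GABPA and YY1, the factors whose motifs were searched for (GABPA binds the ETS letters), were among the regulators not called with MS275.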

How the data were processed

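RNA of L363 cells was measured on 17 Affymetrix arrays. The authors deposited log2 signals per probe set, computed by RMA with the affy package per the submitters' processing notes, and removed 1 array of the 10 nM combination at quality control per the labels. RMA equalises the distributions of the arrays it is run on, but these distributions were not identical, and how the arrays were grouped for it is not given in the sources used here. Scanner files were not used here. Probe sets were named from the platform annotation, with symbols updated through RefSeq: 41091 of 54613 named 1 gene, 1801 several and 11721 none, and 41037 matched RefSeq. The brightest probe set stood for a gene.

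A model of group means was fitted with limma 3.58.1 (R 4.3.3) to all 17 arrays and 19775 genes, with Benjamini-Hochberg adjustment within each comparison. Comparisons of each combination with its single drugs were added after the data were seen. Named were up to 12 members past the threshold per comparison, the largest rise and fall and the highest and lowest mean level of each complex, isoform families, genes whose probe sets disagreed by over 0.5, and in each pathway list those past the threshold among the 3 with the smallest adjusted p; the modules' remaining genes (NDUFA5, ATP5F1B, SDHD) were named after their values were seen. The members and gene lists were chosen with earlier results of these data known. In data simulated for MS275 against control, 35% of genes changed by 1 on the log2 scale and 86% of those changed by 2 were recovered. The number of arrays limits precision. Over genes, the median 95% confidence interval was ± 0.54 between groups of 3 and ± 0.60 with the group of 2. It was ± 0.32 for averaged MS275 and ± 0.34 for averaged rapamycin. Most members had wider intervals: with MS275 against control their SE ran from 0.15 to 0.79. The replicate number was tried as a block. Same-numbered arrays deviated together (every r over 0.1) in 7 of the 10 pairs of groups with 3 numbers, with r of 0.29 to 0.85 there, while the labels mention no shared day or culture. Other alternatives were each array left out, both narrow arrays left out, other scalings, array weights, limma trend, a filter at a mean of 5, the mean of probe sets, and only the groups compared. Figures were drawn with matplotlib 3.10.9.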

Additional observations from a re-analysis of the deposited data

How the results depend on the processing

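No called value of a member changed sign under any alternative run, but counts of called members moved with the control arrays. The calls are few, and a member with no call may still differ. With 3 arrays a group the median interval over genes was about ± 0.54 on the log2 scale, and wider for most members. Complex medians moved with the probe sets, the array weights and single arrays of the control and the combinations. Of the values of single genes followed through the alternatives, 120 lost a call, 66 gained one, and of those not called 126 moved by more than 1 SD, while 8859 did none of these.

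With array weights the called members numbered 22 (MS275), 40 (1 nM rapamycin), 28 (10 nM), 8 (1 nM combination), 13 (10 nM combination), 9 (averaged rapamycin) and 1 (10 nM combination against 10 nM rapamycin). Median changes then were 0.56 for complex IV with MS275, -0.83 and 0.58 for complexes II and IV with 10 nM rapamycin, and 0.33 for complex IV in the 10 nM combination. In the 1 nM combination they were 0.30 for all members and 0.32, 0.40, 0.33 and 0.42 for complexes I, III, IV and V. For the 10 nM interaction they were -0.93 for all members and 0.29, -0.88 and -0.96 for complexes II, IV and V.

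With the mean of probe sets the complex II median was 0.043 (MS275), -0.045 and -0.10 (1 and 10 nM rapamycin), -0.25 and -0.17 (combinations), -0.18 (averaged rapamycin) and -0.28 (1 nM interaction). That of complex III was -0.58 and -0.54 in the 1 and 10 nM interactions. Called members then numbered 1 for averaged rapamycin, 2 in the 1 nM combination against 1 nM rapamycin and 1 in the 10 nM combination against 10 nM rapamycin. With only the groups compared, 0 members were called by limma in either combination against control or with both drugs at 1 nM against 1 nM rapamycin, where fewer arrays estimate the spread. With limma trend the counts were 2 (10 nM combination) and 0 (averaged rapamycin), and with a filter at a mean of 5 the complex IV median in the 10 nM combination was 0.26. Without the narrow arrays 1 member was called with MS275, 1 with both drugs at 1 nM against control and 1 with both at 10 nM against 10 nM rapamycin, and the 10 nM interaction had medians of 0.19 (complex II) and -0.50 (complex III). Apart from the settings whose construction is named, the cause was not tested.

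With the replicate number as a block, the complex II median in the 10 nM interaction was 0.053, and 1 member, NDUFB8, was called in the 10 nM combination against 10 nM rapamycin (-1.24, adjusted p = 0.0457 by limma). SDHA in the 10 nM combination was -1.19 (adjusted p = 0.0409). The numbers of the 10 nM combination were not shown to pair. Its number 2 correlated at 0.01 with control, -0.66 with MS275, -0.74 and -0.63 with 1 and 10 nM rapamycin and -0.35 with the 1 nM combination. Its number 1 correlated at 0.31, 0.07, 0.13, 0.10 and 0.39 in the same order. Called members then numbered 3 (1 nM combination), 6 (10 nM combination), 7 (averaged MS275) and 2 (averaged rapamycin), all falls. The share of all genes called under the block is not given here. The counts alone thus do not show an excess of calls among the members. None of the calls described in the report was lost under the block.

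With each array left out in turn, called members ranged from 0 to 7 (MS275), 0 to 5 (1 nM rapamycin), 0 to 4 (10 nM), 0 to 2 (1 nM combination), 0 to 8 (10 nM combination), 1 to 6 (averaged MS275), 0 to 2 (averaged rapamycin), 0 to 1 (1 nM combination against MS275) and 0 to 1 (10 nM combination against 10 nM rapamycin). The highest counts with each drug alone and in the 10 nM combination came without control replicate 2. The lowest in the 1 nM combination came without its replicate 1. Replicate 1 with both drugs at 10 nM likewise gave the lowest counts when left out, there and for averaged MS275. Medians of complex IV ranged from 0.13 to 0.48 (MS275), 0.049 to 0.47 (1 nM rapamycin), -0.019 to 0.43 (10 nM), -0.18 to 0.19 (10 nM combination), -1.06 to -0.60 (1 nM interaction) and -0.87 to -0.32 (10 nM interaction). Those of complex II ranged from -0.68 to -0.29 (10 nM rapamycin), -1.07 to -0.77 (10 nM combination) and -0.30 to 0.19 (10 nM interaction). That of complex V ranged from -0.16 to 0.61 in the 10 nM combination. In the 10 nM interaction the medians of all members, complex I and complex III ranged from -0.92 to -0.27, -1.15 to -0.34 and -1.28 to -0.50.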
